A study of Mus musculus with 15 samples.

Results

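The genes described here write, copy and remove DNA methylation, or lay down the H3K9 methylation that silences repeats. They are Dnmt1, Dnmt3a, Dnmt3b, Uhrf1, Hells, Tet1, Tet2, Tet3, Trim28 and Setdb1, 10 of the 48440 genes in the deposited count table, chosen by name and matched through their Ensembl IDs. All 10 passed the filter on low counts, which left 18167 genes to test. Their RNA was measured in mouse primary lung fibroblasts of the C57BL/6 strain, in 5 groups of 3 libraries.

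The groups were Atm+/+ cells 10 days after 10 Gy of X-rays (labelled passage 2), Atm-/- cells at passage 8, Atm+/+ cells at passage 8, Atm-/- cells at passage 2 and Atm+/+ cells at passage 2. Atm is the kinase that signals breaks in DNA, and irradiation was used in the study to bring on stress-induced premature senescence. All cultures were kept at 3% oxygen in medium with 15% serum, and per the design text 3 strains of cells were established for each genotype. The irradiated cells had 10 days more in culture than a harvest at exposure, so irradiation and time in culture cannot be told apart. The labels do not tie a library to a strain, so p-values measure the spread between these samples, part of which may be technical.

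In mammalian cells Dnmt1 copies methylation onto the new DNA strand after replication. Uhrf1 brings it there by binding hemimethylated CpG sites, and Hells, a chromatin remodeller also called Lsh, opens nucleosomal DNA to the methyltransferases. Dnmt3a and Dnmt3b set new methylation, and the Tet enzymes oxidise 5-methylcytosine, which starts its removal. Trim28, also called KAP1, is drawn to repeats by KRAB zinc finger proteins and recruits Setdb1, which methylates H3K9 there. Uhrf1 and Dnmt1 are known as genes with high expression in dividing cells.

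Levels are CPM (counts scaled to a library of 1 M) after TMM normalisation, a scaling of each library that assumes most genes do not differ. Libraries held 13.6 to 39.2 M counts. Fold changes are log2 values given with the standard error (SE), from the quasi-likelihood test of edgeR fitted to all 15 libraries, and a gene passed at an adjusted p under 0.05. Values of 3 libraries are given in the order of replicates 1, 2 and 3. A pair of libraries stood apart in the number of genes with reads once depth was made equal. It was 15037 for replicate 3 of Atm-/- passage 8 and 17226 for replicate 3 of Atm+/+ passage 2, while the other 13 had 20101 or more. Results are therefore also given for a fit of those 13 libraries. Atm itself had reads in all groups, at 0.873 to 2.37 CPM in Atm-/- cells of both passages and 0.877 to 3.10 CPM in unirradiated Atm+/+ cells. The labels do not say which part of the gene was removed, so these counts do not check the genotype.

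Per gene length the order of the levels was alike in all groups. Trim28 was by far the highest, with group means of 95.4 to 146 TPM (transcripts per M), and Dnmt1 followed at 5.98 to 11.7 TPM in unirradiated cells. Dnmt1, Uhrf1 and Setdb1 were neighbours that did not separate beyond their spread in Atm+/+ passage 2 cells, at 8.38 ± 5.24, 7.11 ± 2.05 and 4.97 ± 2.66 TPM (SD, n = 3). Dnmt3a and Tet3 came next, then Hells and Tet2 at 0.400 to 1.34 TPM. Dnmt3b was at 0.113 to 0.543 TPM, and Tet1 was lowest in every group, at 0.0123 to 0.0778 TPM. Uhrf1 ranked 3 or 4 in unirradiated groups and 6 in irradiated cells, at 1.90 ± 0.176 TPM beside Tet3 at 2.12 ± 0.254 TPM (SD, n = 3).

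**Figure D1:**
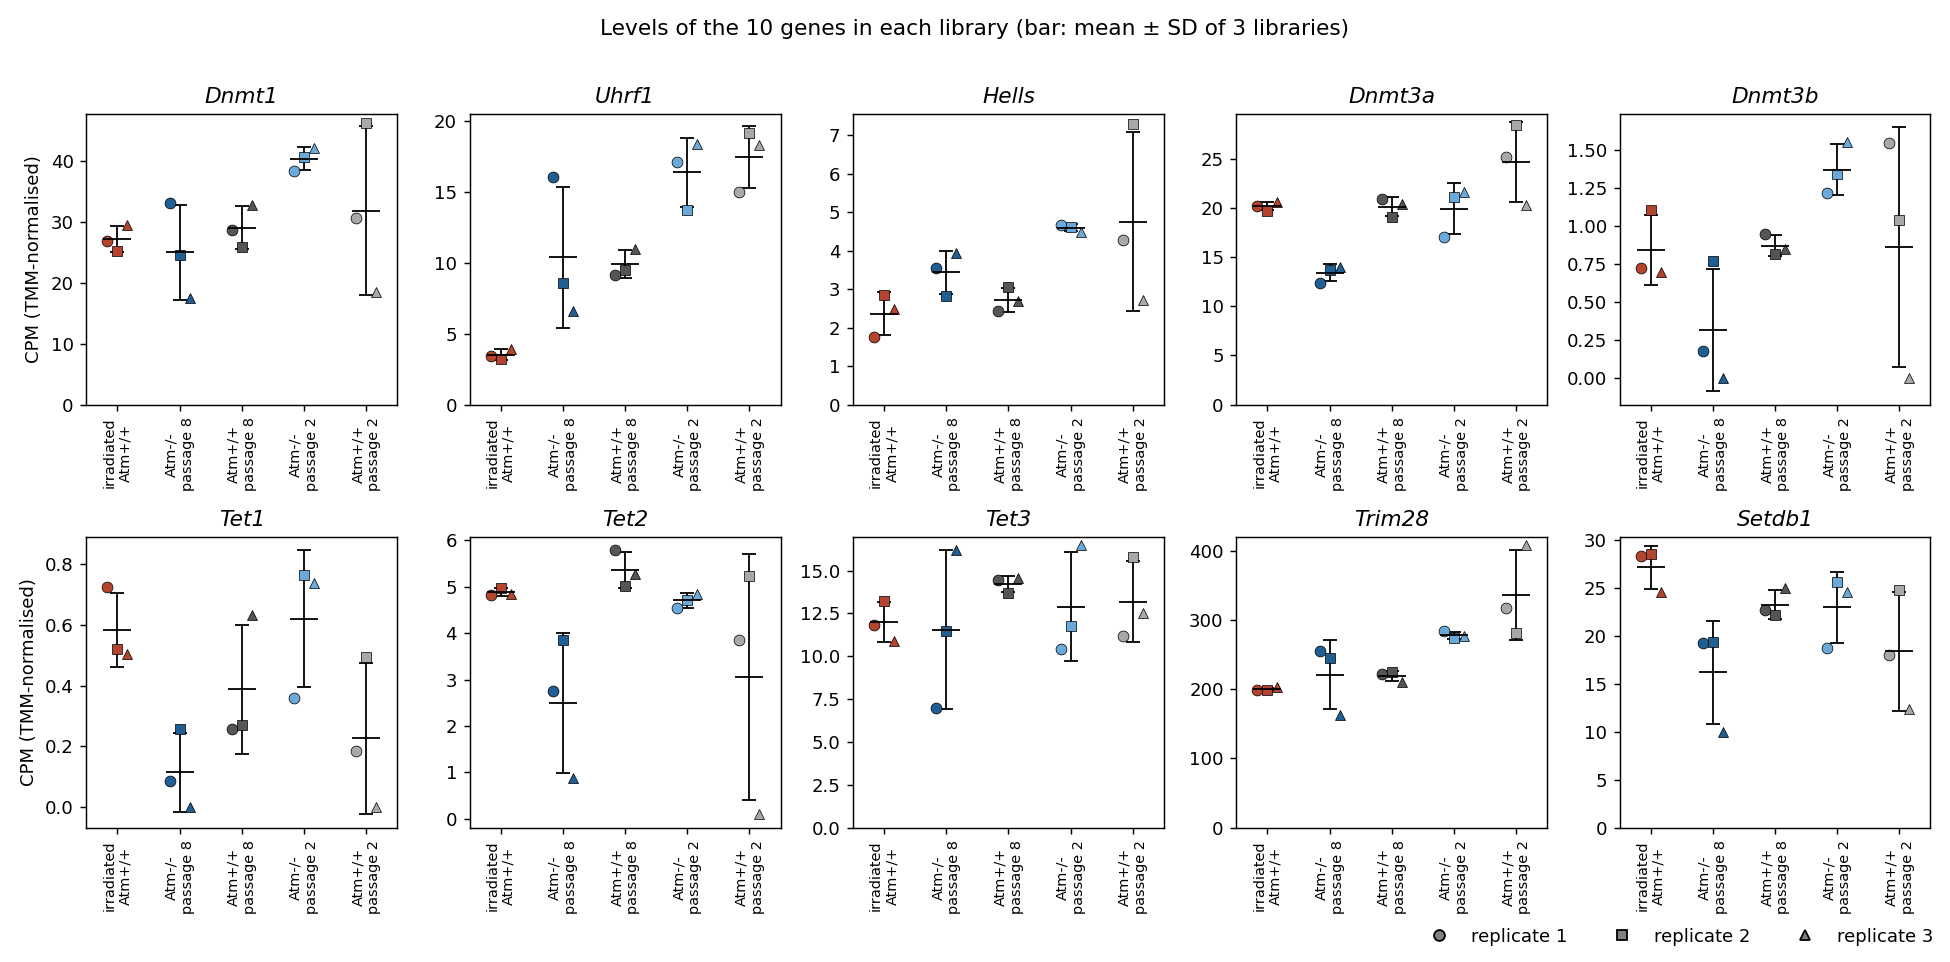
TMM-normalised CPM of each gene (y axis) in the 15 libraries, by group (x axis), with replicates as symbols and bars for the mean ± SD of 3 libraries. Uhrf1 lies at 3.23 to 3.94 CPM in irradiated cells and at 15.0 to 19.15 CPM in Atm+/+ passage 2 cells, while Tet2, Setdb1 and Dnmt1 have their lowest unirradiated values in the pair of libraries that stood apart.

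Irradiation was compared with unirradiated Atm+/+ cells first at passage 2. Uhrf1, the recruiter of Dnmt1, fell the most, Hells and Trim28 fell less, and the other 7 genes did not pass. Of the 10 genes 3 were lower and 0 higher, where 16.5% of all tested genes were lower and 11.0% higher. Their median log2 fold change was -0.18, against -0.01 over all genes, and in the 13 libraries -0.41, against -0.001.

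Uhrf1 was at 3.43, 3.23 and 3.94 CPM in irradiated cells, against 15.0, 19.15 and 18.3 CPM in Atm+/+ passage 2 cells. Every irradiated library lay far below every unirradiated one. Its log2 fold change was -2.31 (edgeR, SE 0.29, adjusted p = 0.000169), and it passed under all 24 alternatives run, at -2.40 to -1.46. Against Atm+/+ cells of passage 8, at 9.18, 9.53 and 11.0 CPM, irradiated cells had a log2 fold change of -1.49 (edgeR, SE 0.28, adjusted p = 0.00448). That second call was lost on the TPM scale alone, where the adjusted p was 0.0839 with a pseudocount of 1 and 0.0786 with 0.1.

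Uhrf1 lies on chromosome 17, 56303321 to 56323486, plus strand (GRCm38). RefSeq gives it a pair of start sites, and the 250 bases before the second, at chr17:56304063-56304312 on the plus strand (GRCm38.p6), are shown because Uhrf1 is the gene that moved most and because they hold a match to the E2F site, the word by which cell cycle genes are often regulated. Capitals mark the match, which begins 185 bases before the start.

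Uhrf1: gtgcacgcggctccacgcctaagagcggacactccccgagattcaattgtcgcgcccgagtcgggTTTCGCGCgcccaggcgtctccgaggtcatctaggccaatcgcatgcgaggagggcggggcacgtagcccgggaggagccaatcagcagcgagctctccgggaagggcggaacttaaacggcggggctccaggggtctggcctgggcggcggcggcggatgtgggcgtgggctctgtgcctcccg

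The words searched were TTTGGCGC, TTTCCCGC, TTTCGCGC and TTTGCCGC on both strands, in windows of 250 bases before to 50 after each RefSeq start. All 10 genes had windows, 15 in all, and 3 of the 15 held a word, against 2.26% of all 32851 windows. Each word contains CG, and the windows compared were not matched for CpG. These shares therefore do not test for an excess of E2F words. The other matches were in Hells, 62 bases before its start, and in Dnmt1, 219 bases before the most downstream of its 3 starts, where the word stands in reverse. The stretches of 28 bases around them are chr19:38930918-38930945 on the plus strand for Hells and chr9:20952825-20952852 on the minus strand for Dnmt1.

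Hells: accaccgggtTTTCCCGCgaaagagaag

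Dnmt1: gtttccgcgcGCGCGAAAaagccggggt

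A match describes the letters in the window and not a site in use. The Dnmt1 window holds a further match behind the start. The windows of the 10 genes also differed widely in CpG, the dinucleotide that Dnmt1 methylates, with 2 to 57 CpG per window. The median over all windows was 7, and 14 windows of the 10 genes lay above it. The windows with a word held 33 CpG for Uhrf1, 34 for Hells and 33 for Dnmt1. Tet2 had the window with 57.

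Hells was at 1.76, 2.86 and 2.49 CPM in irradiated cells, against 4.28, 7.29 and 2.71 CPM in Atm+/+ passage 2 cells. The groups overlapped, since Atm+/+ passage 2 replicate 3 lay inside the irradiated range. The log2 fold change of -1.01 (edgeR, SE 0.35, adjusted p = 0.0448) passed in 6 of 24 alternatives. It was -1.24 (adjusted p = 0.00149) in the 13 libraries and -0.50 (adjusted p = 0.242) without Atm+/+ passage 2 replicate 2. Leaving out 1 library ended the call in 13 of 15 fits, all but those without replicate 3 of Atm-/- passage 8 or of Atm+/+ passage 2. Against passage 8 Atm+/+ cells Hells differed by -0.20 (edgeR, SE 0.35, adjusted p = 0.908).

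Trim28, the corepressor of KRAB zinc finger proteins, was at 199, 199 and 203 CPM in irradiated cells, against 318, 282 and 408 CPM in Atm+/+ passage 2 cells. The irradiated libraries lay close together and below all 3 unirradiated ones. Trim28 fell (edgeR log2 fold change -0.745, SE 0.17, adjusted p = 0.00705). On log2(TPM + 1), where the median of all genes itself was at 0.33, it was at -0.30 and did not pass in limma (adjusted p = 0.344).

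Dnmt1 was at 26.8, 25.2 and 29.5 CPM in irradiated cells, against 30.7, 46.3 and 18.5 CPM in Atm+/+ passage 2 cells. The lowest of these values was in Atm+/+ passage 2 replicate 3. Its log2 fold change was -0.23 (edgeR, SE 0.28, adjusted p = 0.550). In the 13 libraries Dnmt1 was at -0.46 (SE 0.17, adjusted p = 0.0371), Dnmt3a at -0.36 (SE 0.11, adjusted p = 0.0195) and Setdb1 at 0.39 (SE 0.15, adjusted p = 0.0498). These 3 passed in that fit in addition to Uhrf1, Hells and Trim28, and did not pass in all 15 libraries. Over all genes 8561 passed in that fit, against 4998 in all 15 libraries. For Dnmt1 and Dnmt3a the sign was positive on the TPM scale.

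The Tet genes had no call after irradiation. Tet1 was at 0.723, 0.519 and 0.503 CPM in irradiated cells, against 0.186, 0.493 and 0 CPM in Atm+/+ passage 2 cells. The irradiated libraries lay above the others, at levels of few reads, and the log2 fold change was 1.26 (edgeR, SE 0.85, adjusted p = 0.280). Tet2 was at 4.83 to 4.98 CPM and Tet3 at 10.9 to 13.2 CPM in irradiated cells, inside or beside their ranges in Atm+/+ passage 2 cells of 0.0967 to 5.23 and 11.2 to 15.8 CPM. The value of 0.0967 CPM is 2 reads, in Atm+/+ passage 2 replicate 3. Dnmt3b and Tet1 had 0 reads in that library, where 3 counts would be 0.145 CPM.

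**Figure D2:**
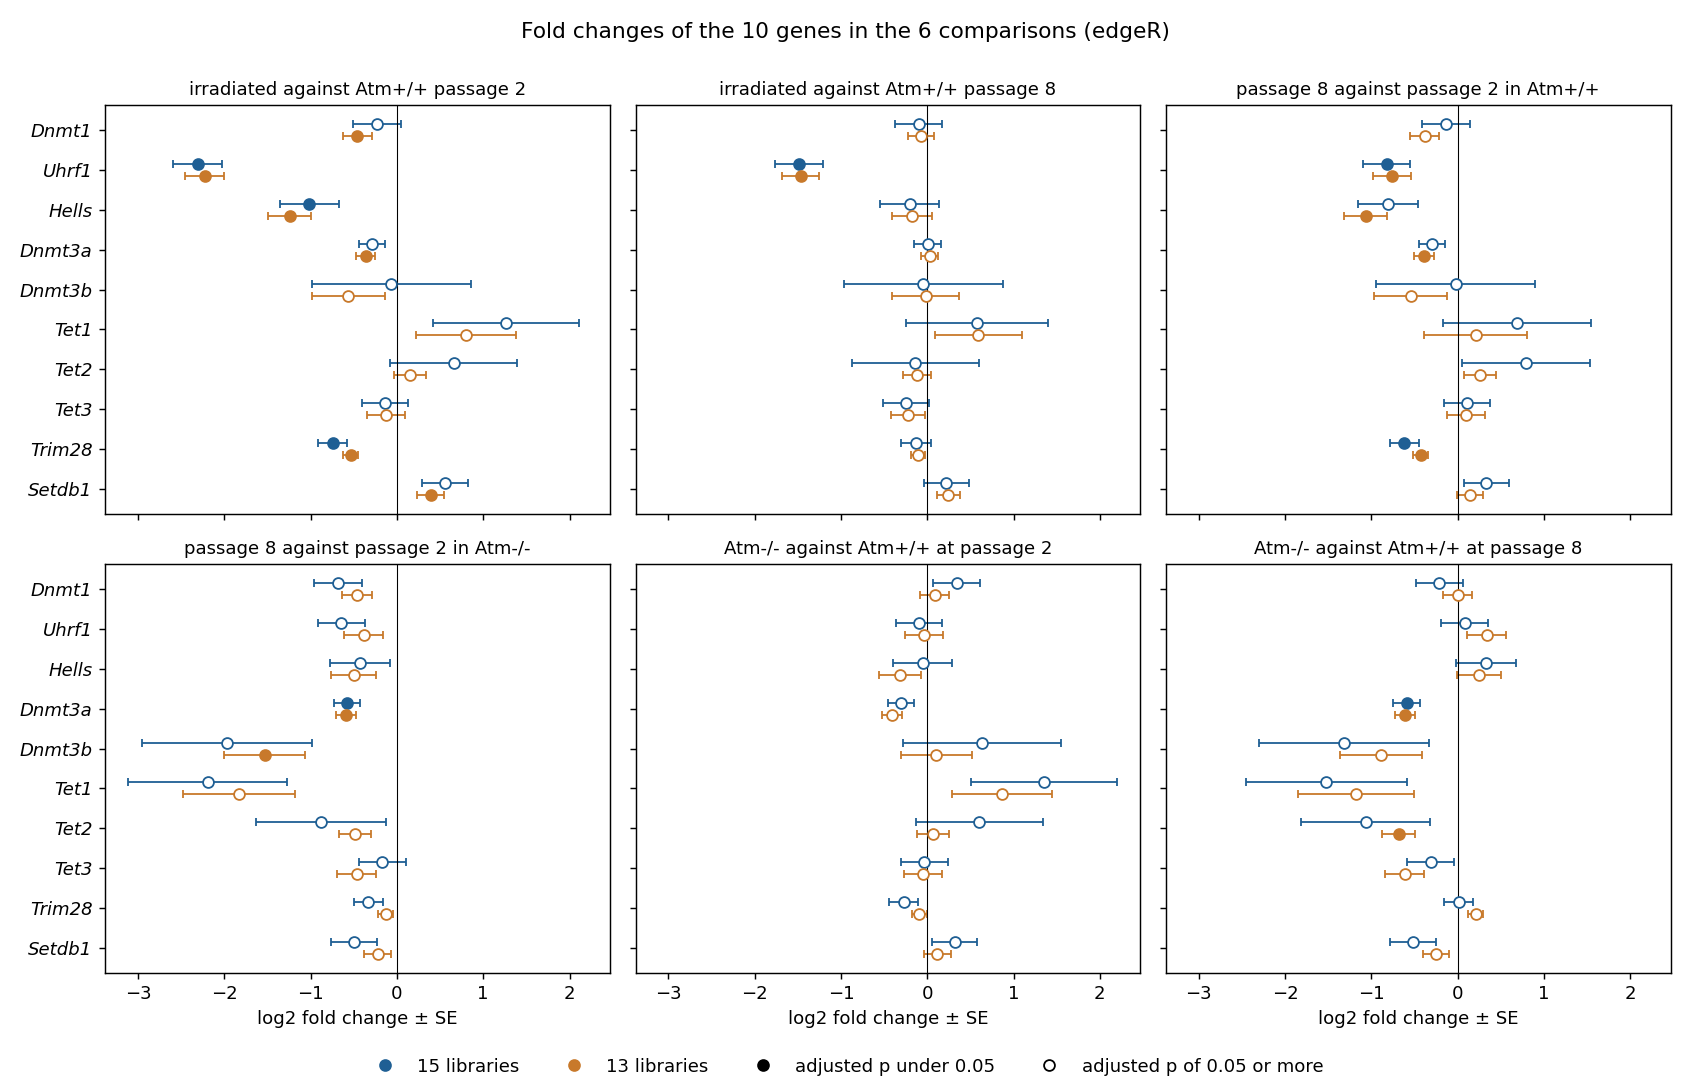
Log2 fold change ± SE (x axis) of the 10 genes (y axis) in 6 comparisons, from the edgeR fit of all 15 libraries and from the fit of 13, with filled points for an adjusted p under 0.05. Uhrf1 is filled in both fits of both irradiation panels, at -2.31 and -1.49 in 15 libraries, and Dnmt3a in both fits of the passage panel of Atm-/- cells and of the genotype panel at passage 8.

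Cell cycle genes moved beside Uhrf1. Of 24 S phase genes 14 fell and 0 rose after irradiation against passage 2 (median log2 fold change -1.11), and of 16 mitosis genes 14 fell and 0 rose (median -2.24). Over all genes 16.5% were lower and 11.0% higher, with a median of -0.01. The summed CPM of the mitosis genes was 68.1 to 81.3 in irradiated cells, 169 to 311 in Atm-/- passage 8, 216 to 270 in Atm+/+ passage 8, 365 to 430 in Atm-/- passage 2 and 328 to 442 in Atm+/+ passage 2 cells. Genes of like pattern were sought among 10718 with a mean log2 CPM of 2 or more, leaving out predicted and clone-based symbols. Those most like Uhrf1 were Racgap1, Plk1 and Ccnb2 (Pearson r of log2 CPM 0.973, 0.971 and 0.969 over 15 libraries). In the 13 libraries Racgap1 was again first, at r = 0.995. The nearest genes of Hells were Msh3, Acsl5 and Timeless (0.917, 0.894 and 0.890) and those of Dnmt1 were Mcm4, Gprc5b and Prkdc (0.915, 0.911 and 0.895). These libraries form 5 groups and share their depth and normalisation, so the values describe the series and carry no p. The part of cell division in the level of Uhrf1 was not tested.

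**Figure D3:**
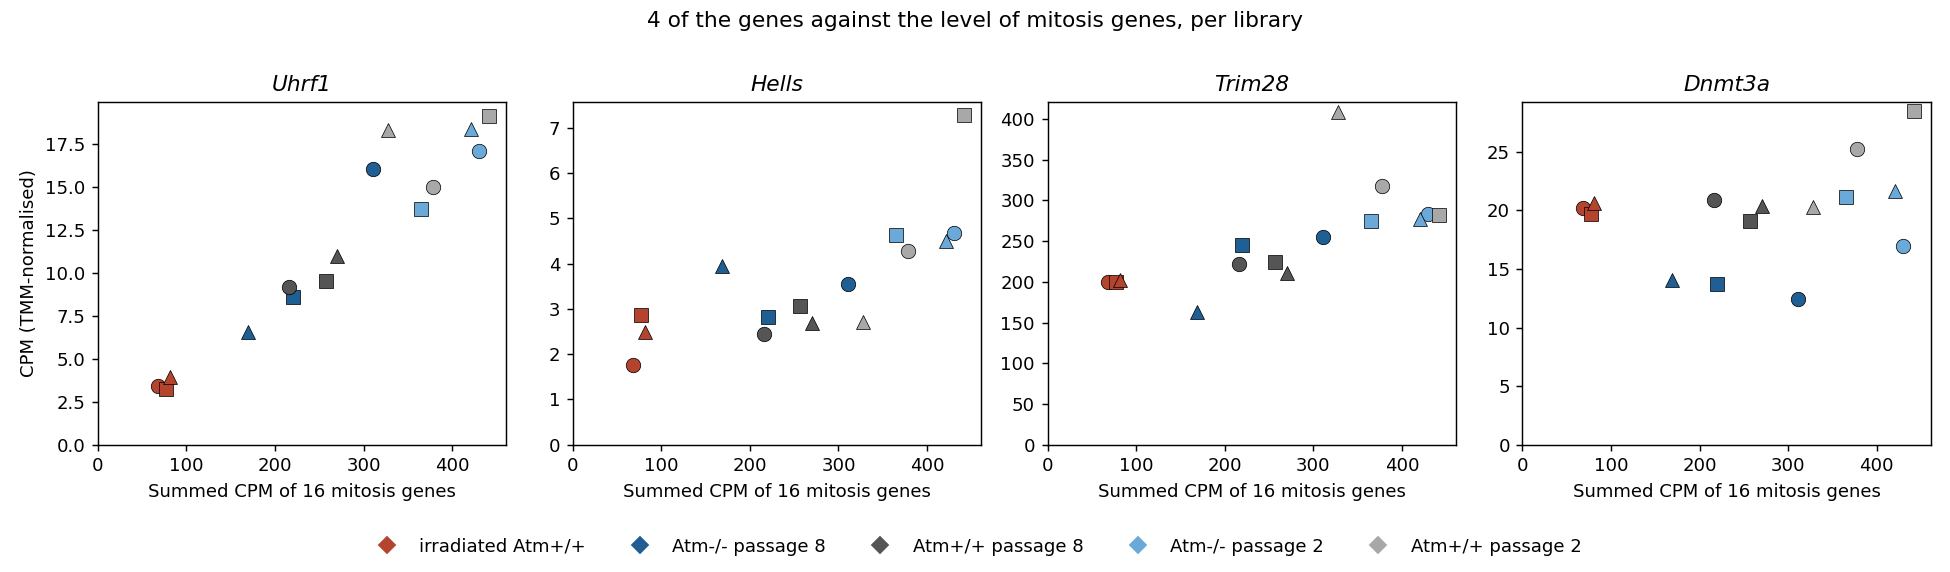
CPM of Uhrf1, Hells, Trim28 and Dnmt3a (y axis) against the summed CPM of 16 mitosis genes (x axis), with 1 point per library, colours for groups and symbols for replicates as in the plot of levels. Irradiated libraries lie at sums of 68.1 to 81.3 with Uhrf1 at 3.23 to 3.94 CPM, and Dnmt3a at 12.4 to 14.03 CPM in Atm-/- passage 8 cells stands below all other libraries at any sum.

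Among the 10 genes themselves, Uhrf1 and Trim28 had r = 0.763 over all 15 libraries and 0.854 over the 13 (log2 CPM). For Uhrf1 with Hells r was 0.672 in the 15 and 0.794 in the 13, and for Dnmt1 with Hells 0.572 and 0.815 in those same sets. Trim28 and Hells had r = 0.368 in all 15 libraries and 0.834 in the 13. Tet2 and Tet3 had r = 0.850 in the 13 libraries and 0.002 in all 15. Trim28 and Setdb1, which act together, had r = -0.611 in the 13 and -0.167 in all 15. Over the 15 libraries the nearest genes to Trim28 were Mob2, Ssbp3 and Zfp579 (0.969, 0.954 and 0.952), and to Setdb1 Coq10b, Anxa11 and Wdr11 (0.981, 0.976 and 0.974). Those of Dnmt3a were Pi15, Map4k2 and Lrp6 (0.930, 0.922 and 0.920). For Dnmt3b they were Il13ra1, Taf9b and Fkbp7 (0.945, 0.944 and 0.942), and for Tet1 Tnrc6b, Zc3h7b and March3 (0.979, 0.967 and 0.953). For Tet2 they were Mpc1-ps, Isg20l2 and Nck1 (0.990, 0.984 and 0.983), and for Tet3 Egr2, Ppp2r5c and Ccdc157 (0.794, 0.791 and 0.784). Leaving out the pair of libraries replaced all 3 nearest genes of Dnmt1, Dnmt3a, Dnmt3b, Tet2, Tet3 and Setdb1. Of the 3, Tet1 kept 2 (Tnrc6b and Zc3h7b), while Uhrf1 kept Racgap1, Trim28 kept Ssbp3 and Hells kept Msh3.

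Further genes of the pathway after irradiation came from lists of known function. Of 13 tested partners of maintenance and de novo methylation 4 fell and 0 rose, where 16.5% of all genes were lower and 11.0% higher. Lig1, the ligase that joins fragments of newly copied DNA, was at 10.5, 11.6 and 12.1 CPM in irradiated cells, against 40.7, 37.8 and 53.1 CPM in Atm+/+ passage 2 cells, without overlap (edgeR log2 fold change -1.95, SE 0.17, adjusted p = 1.2e-05). Pclaf, which binds the replication clamp, fell by 3.00 (SE 0.51). Mat2a, which makes the methyl donor S-adenosylmethionine, fell by 0.56 (SE 0.20), and Dmap1, a partner of Dnmt1, fell by 0.72 (SE 0.23).

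Readers of methylated CpG moved the other way in part, with 3 of 7 higher and 1 lower, beside 11.0% and 16.5% over all genes. Mbd1 was at 180, 201 and 195 CPM in irradiated cells, against 110, 106 and 125 CPM in Atm+/+ passage 2 cells (edgeR log2 fold change 0.75, SE 0.14, adjusted p = 0.00198). Zbtb38 rose by 0.94 (SE 0.235) and Zbtb33, also called Kaiso, by 1.35 (SE 0.41). Mbd3, a subunit of the NuRD complex that does not itself favour methylated DNA, fell by 0.52 (SE 0.15).

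Among 12 tested genes of active demethylation and of Tet cofactors 4 fell and 1 rose, beside 16.5% lower and 11.0% higher over all genes. Idh1 and Idh2, whose enzymes make the 2-oxoglutarate that Tet enzymes use, fell by 0.77 (SE 0.12) and 1.23 (SE 0.175). Xrcc1, a scaffold of base excision repair, fell by 0.70 (SE 0.13) and Cxxc5 by 1.43 (SE 0.28). Of 19 genes of H3K9 methylation, KRAB and HP1 silencing 4 fell and 1 rose, beside the same all-gene shares. Zfp57, the KRAB zinc finger protein that keeps imprints, fell by 1.07 (SE 0.17), and Suv39h1, an H3K9 methyltransferase of heterochromatin, fell by 1.16 (SE 0.21). Chaf1b, of the factor that loads histones on new DNA, fell by 2.10 (SE 0.40), and Cbx5, which encodes HP1 alpha, fell by 0.49 (SE 0.12).

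Against passage 8 Atm+/+ cells, 1 of the 10 genes was lower in irradiated cells (Uhrf1) and 0 higher, where 2.59% of all genes were lower and 4.30% higher. The median log2 fold change of the 10 was -0.114, against -0.015 over all genes. Lig1, Pclaf and Mat2a were the 3 partners that fell, by 0.72 (SE 0.17), 2.00 (SE 0.50) and 0.75 (SE 0.20). Mbd1 rose by 0.87 (SE 0.14), Idh2 fell by 0.98 (SE 0.17), Xrcc1 by 0.47 (SE 0.13) and Zfp57 by 0.68 (SE 0.17). Both irradiation comparisons share the irradiated libraries.

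Serial culture was compared within each genotype. In Atm+/+ cells 2 of the 10 genes, Uhrf1 and Trim28, were lower at passage 8 than at passage 2 and 0 higher, where 13.5% of all genes were lower and 9.80% higher. The 10 genes had a median of -0.076, against 0 over all genes, and in the 13 libraries -0.386, against -0.001. Uhrf1 was at 9.18, 9.53 and 11.0 CPM at passage 8, against 15.0, 19.15 and 18.3 CPM at passage 2, without overlap. The log2 fold change was -0.82 (edgeR, SE 0.27, adjusted p = 0.0445), and it kept its sign in all 24 alternatives and passed in 7. Of the 15 fits without 1 library, 2 called it (those lacking replicate 1 or 3 of Atm-/- passage 8), and the others had an adjusted p of up to 0.136.

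Trim28 was at 222, 225 and 211 CPM in Atm+/+ cells of passage 8, against 318, 282 and 408 CPM at passage 2. All passage 8 values lay below all passage 2 values. The log2 fold change was -0.62 (edgeR, SE 0.17, adjusted p = 0.0193) and passed in 17 of 24 alternatives. Without Atm+/+ passage 2 replicate 3, the library with 408 CPM, it was -0.42 (adjusted p = 0.107), and without any of the 3 Atm+/+ passage 8 libraries the adjusted p was 0.0549 to 0.0805. Hells was at 2.44, 3.05 and 2.69 CPM at passage 8, against 4.28, 7.29 and 2.71 CPM at passage 2, which edgeR put at a log2 fold change of -0.81 (SE 0.35, adjusted p = 0.106). It was -1.06 (adjusted p = 0.00435) in the 13 libraries, where Dnmt3a was also called, at -0.39 (adjusted p = 0.0157).

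In Atm-/- cells 1 of the 10 genes, Dnmt3a, was lower at passage 8 and 0 higher, where 8.25% of all genes were lower and 4.76% higher. The median of the 10 was -0.611, against -0.080 over all genes, and in the 13 libraries -0.475, against 0.013. Dnmt3a, a methyltransferase that sets new methylation, was at 12.4, 13.7 and 14.03 CPM at passage 8, against 17.0, 21.1 and 21.7 CPM at passage 2. The groups did not overlap. This log2 fold change was -0.58 (edgeR, SE 0.15, adjusted p = 0.0230) and it passed in 15 of 24 alternatives. It did not pass once Atm-/- passage 8 replicate 1 was left out (adjusted p = 0.0789), nor replicate 2 (0.119) or replicate 3 (0.130) of Atm-/- passage 2, nor irradiated replicate 1 (0.0501).

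Dnmt3b, the other methyltransferase of this kind, was at 0.175, 0.771 and 0 CPM in Atm-/- cells of passage 8, against 1.22, 1.35 and 1.55 CPM at passage 2. Passage 8 lay below passage 2 in all libraries, with at most 57 reads in any library of the series. Its log2 fold change was -1.97 (edgeR, SE 0.98, adjusted p = 0.212), and in the 13 libraries it was -1.53 (SE 0.47, adjusted p = 0.0259). The library with 0 reads is the shallowest, where 3 counts would be 0.263 CPM. Tet1 was at 0.0873, 0.257 and 0 CPM at passage 8, against 0.360, 0.762 and 0.737 CPM at passage 2 (edgeR log2 fold change -2.19, SE 0.92, adjusted p = 0.139).

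Uhrf1 spread widely at passage 8 without Atm. It was at 16.03, 8.60 and 6.58 CPM in Atm-/- cells of passage 8, against 17.1, 13.7 and 18.4 CPM at passage 2, with overlap through replicate 1 (edgeR log2 fold change -0.645, SE 0.27, adjusted p = 0.141). With Atm-/- passage 8 replicate 1 left out Uhrf1 passed, at -1.08 (SE 0.22, adjusted p = 0.00761), and in the 13 libraries it was at -0.38 (SE 0.23, adjusted p = 0.237). In these same 3 passage 8 libraries the mitosis genes summed to 311, 220 and 169 CPM. Dnmt1 was at 33.0, 24.5 and 17.5 CPM at passage 8, against 38.3, 40.7 and 42.1 CPM at passage 2, without overlap (edgeR log2 fold change -0.68, SE 0.28, adjusted p = 0.125). Without Atm+/+ passage 2 replicate 3 Dnmt1 passed in this comparison (adjusted p = 0.0453).

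A difference in passage effect, Atm-/- minus Atm+/+, passed for 0 of the 10 genes in edgeR, where 2.46% of all genes were higher and 1.97% lower. It also passed for 0 in DESeq2, and 2 genes, Tet1 and Setdb1, had an unadjusted p under 0.05. For Dnmt3a the difference was -0.28 (SE 0.22, adjusted p = 0.382) and for Uhrf1 0.17 (SE 0.38, adjusted p = 0.776), so neither passage effect is shown to differ between genotypes.

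Some other genes of the pathway also changed with passage. In Atm+/+ cells 2 of 13 partners fell and 0 rose, where 13.5% of all genes were lower and 9.80% higher. Those that fell were Lig1, by 1.23 (SE 0.17), and Dmap1, by 0.82 (SE 0.23). In Atm-/- cells 1 of the 13 fell and 0 rose, where 8.25% of all genes were lower and 4.76% higher. It was Nsd1, which places the H3K36 methylation that Dnmt3a reads, and fell by 0.64 (edgeR, SE 0.15, adjusted p = 0.0112). The passage effect on Lig1 was higher in Atm-/- than in Atm+/+ cells by 0.96 (edgeR, SE 0.235, adjusted p = 0.0413). Of 19 genes of H3K9 methylation, KRAB and HP1 silencing 2 fell and 0 rose in Atm+/+ cells, and 1 fell and 0 rose in Atm-/- cells. Suv39h1 fell with passage in both genotypes, by 0.78 (SE 0.21) in Atm-/- and 1.17 (SE 0.21) in Atm+/+ cells. Chaf1b fell by 1.37 (SE 0.39) in Atm+/+ cells. Of 7 readers 1, Zbtb38, rose in Atm+/+ cells, by 0.82 (SE 0.235), and 0 passed in Atm-/- cells. Of 12 genes of active demethylation and Tet cofactors 2 fell and 0 rose in Atm+/+ cells, and 1 fell and 0 rose in Atm-/- cells. Idh2 fell by 1.14 (SE 0.175) in Atm-/- cells, while Idh1 fell by 0.75 (SE 0.12) and Cxxc5 by 1.12 (SE 0.28) in Atm+/+ cells. For Idh1 the difference of passage effects was 0.63 (edgeR, SE 0.17, adjusted p = 0.0499).

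Genes of the HUSH complex and MORC proteins, which silence young repeats and transgenes, were counted in 1 list with Smchd1, which belongs to neither. Of these 6 genes 0 passed in edgeR in any comparison of all 15 libraries. At an unadjusted p under 0.05 there were 2 at passage 8 between genotypes, 1 after irradiation against passage 2, 1 in the difference of passage effects and 0 in the other 4. Morc3 was at 14.6, 13.6 and 18.9 CPM in Atm+/+ passage 8 cells, against 7.63, 11.6 and 2.61 CPM at passage 2, where the lowest value was again in replicate 3 (edgeR log2 fold change 1.10, SE 0.67, adjusted p = 0.245). In the 13 libraries 5 of the 6 were higher at passage 8 in Atm+/+ cells. Among them were Morc2a by 0.42 (edgeR, SE 0.08, adjusted p = 0.001), Morc3 by 0.73 (SE 0.21) and Smchd1 by 0.57 (SE 0.17). Over all genes 7418 passed there, both directions together, against 4227 in all 15 libraries. The share of all genes that were higher in that fit is not given here. The fit also leaves out Atm+/+ passage 2 replicate 3, where the 6 genes summed to 65 CPM, against 91.8 and 118 CPM in replicates 1 and 2.

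Genes whose own silence depends on methylation were read out as well. Of 16 germline genes known to be silenced by promoter methylation, 13 stayed at or below 1.60 CPM in every library and were not tested. Tdrd1, named here after its values were seen, passed. It had 0 reads in the 3 Atm+/+ passage 2 libraries and 7 to 22 reads per library in irradiated cells. With 0 reads at Atm+/+ passage 2, Tdrd1 came through the low-count filter only through other groups, so its pass is no test of silencing. Its mean was at least 11.3-fold higher in irradiated cells and at least 9.0-fold higher in Atm+/+ passage 8 cells, against a floor of 3 counts over the passage 2 group. Brdt and Piwil2, the other 2 tested, did not pass in either comparison. The 16 genes summed to 5.36 to 5.65 CPM in irradiated, 3.95 to 5.09 CPM in Atm+/+ passage 8 and 4.81 to 7.74 CPM in Atm+/+ passage 2 cells. With passage in Atm-/- cells 0 of the 3 tested genes passed. In the difference of passage effects 1 was lower and 0 higher, where 1.97% of all genes were lower and 2.46% higher. That comparison also takes in the Atm+/+ passage 2 group, where Tdrd1 had 0 reads, so it is no test of silencing either.

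Of 17 tested imprinted genes, 4 rose and 3 fell after irradiation against passage 2. With passage 3 rose and 4 fell in Atm+/+ cells, and 2 rose and 3 fell in Atm-/- cells. Over all genes, in the same order, 11.0% were higher and 16.5% lower, 9.80% and 13.5%, and 4.76% and 8.25%. Meg3, a maternally expressed long RNA, was at 326, 284 and 301 CPM in irradiated cells, against 121, 90.8 and 98.5 CPM in Atm+/+ passage 2 cells (edgeR log2 fold change 1.56, SE 0.21, adjusted p = 0.000289). It also rose with passage, by 1.16 (SE 0.21) in Atm-/- and 1.95 (SE 0.21) in Atm+/+ cells. H19 fell after irradiation, by 2.21 (SE 0.64), and Mest fell with passage, by 4.87 (SE 0.68) in Atm-/- and 4.83 (SE 0.67) in Atm+/+ cells.

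Markers of other cell types moved with passage too. All 6 macrophage markers fell with passage in both genotypes, and their summed CPM was 1040 to 1790 in irradiated cells, 35.2 to 56.5 in Atm-/- passage 8, 61.5 to 92.1 in Atm+/+ passage 8, 760 to 1180 in Atm-/- passage 2 and 1660 to 2270 in Atm+/+ passage 2 cells. Ptprc and Adgre1 were at 0 in all 3 Atm-/- passage 8 libraries. All 4 endothelial markers fell with passage in both genotypes, with sums of 49.3 to 148 CPM in irradiated cells, 1.84 to 8.38 CPM at passage 8 and 138 to 444 CPM in unirradiated cells of passage 2. Fibroblast markers summed to at least 22800 CPM in every group other than Atm-/- passage 8, where they were at 9490 to 13400 CPM. Against Atm+/+ cells of passage 8, 7 of the 9 were lower there and 1 higher, beside 4.29% and 5.03% over all genes. Mesothelial markers summed to 10.1 to 46.5 CPM in Atm-/- passage 8 cells and at most 4.28 CPM elsewhere, epithelial markers to at most 15.4 CPM and lymphocyte markers to at most 1.11 CPM. In bulk RNA fewer cells of a type and less RNA per cell cannot be told apart, and the part of these shifts in the levels of the 10 genes was not tested.

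**Figure D4:**
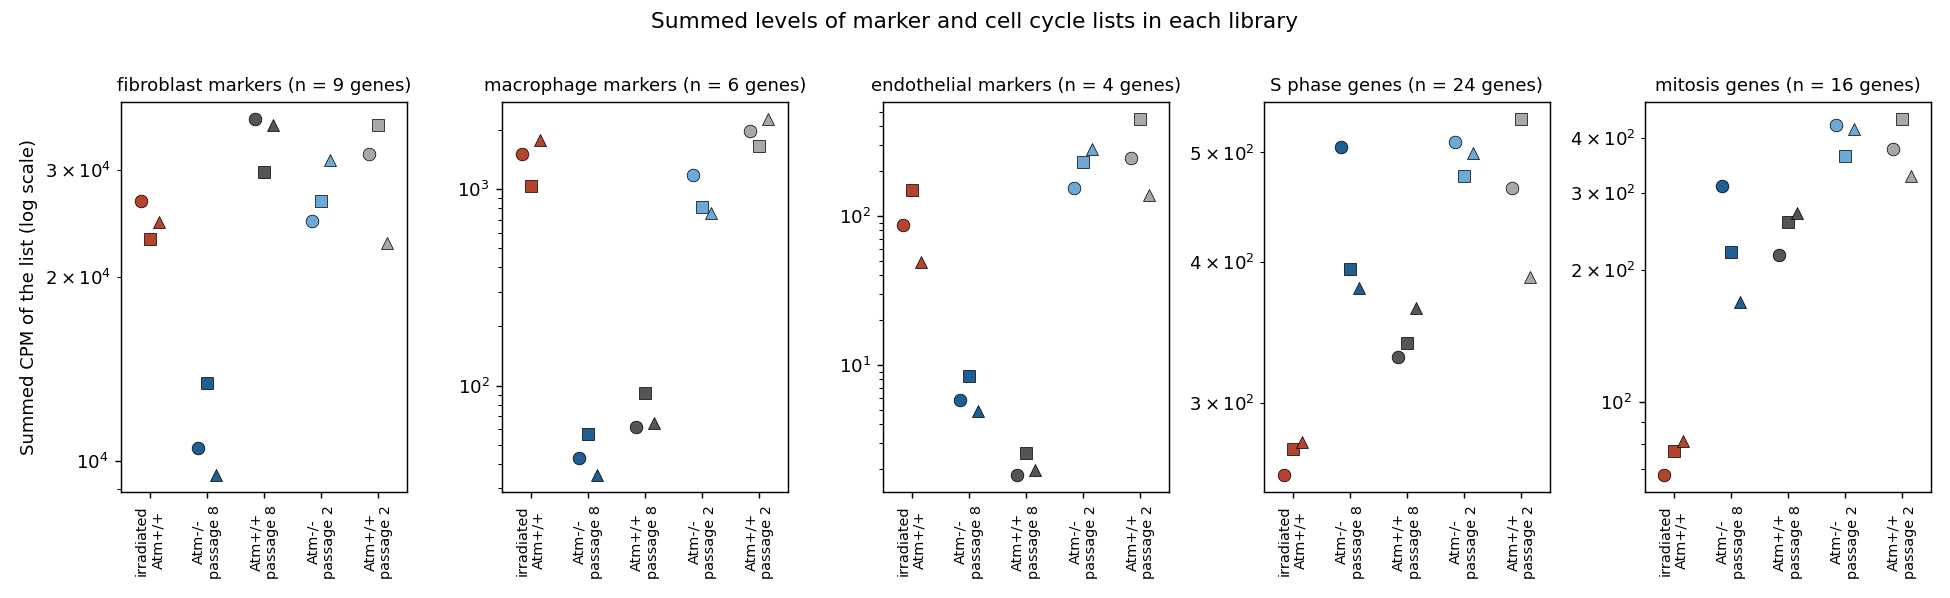
Summed CPM (y axis, log scale) of fibroblast, macrophage and endothelial markers and of S phase and mitosis genes in each library, by group (x axis), with symbols for replicates. Macrophage sums are 35.2 to 92.1 CPM in passage 8 libraries and at least 760 CPM in irradiated and passage 2 libraries, and mitosis sums are lowest in irradiated cells.

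Loss of Atm was compared at either passage. At passage 2, 0 of the 10 genes passed in edgeR or in DESeq2, and 0 had an unadjusted p under 0.05, where 0.628% of all genes were higher and 0.341% lower without Atm. Dnmt3a was at 17.0, 21.1 and 21.7 CPM in Atm-/- cells, against 25.2, 28.4 and 20.3 CPM in Atm+/+ cells, overlapping through Atm+/+ replicate 3. Its log2 fold change was -0.31 (edgeR, SE 0.15, adjusted p = 0.328), and -0.41 (SE 0.11, adjusted p = 0.0548) in the 13 libraries. Uhrf1 was at 17.1, 13.7 and 18.4 CPM in Atm-/- cells, against 15.0, 19.15 and 18.3 CPM in Atm+/+ cells, with overlap (log2 fold change -0.09, SE 0.27). Dnmt1 lies on chromosome 9 as Atm does, 32.5 Mb away, and was at 38.3, 40.7 and 42.1 CPM in Atm-/- cells, inside the Atm+/+ range of 18.5 to 46.3 CPM.

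At passage 8 Dnmt3a was the 1 gene of the 10 that was lower without Atm, and 0 were higher, where 4.29% of all genes were lower and 5.03% higher. The median of the 10 was -0.412, against -0.078 over all genes. Dnmt3a was at 12.4, 13.7 and 14.03 CPM in Atm-/- cells, against 20.9, 19 and 20.4 CPM in Atm+/+ cells. Every Atm-/- library lay below every Atm+/+ library, and these 3 were the lowest of all 15. The log2 fold change was -0.59 (edgeR, SE 0.15, adjusted p = 0.0302), with the same sign in all 24 alternatives and a pass in 12. It was -0.61 (SE 0.12, adjusted p = 0.00325) in the 13 libraries, and its adjusted p was 0.105 without Atm+/+ passage 8 replicate 1, 0.0705 without replicate 2 and 0.108 without replicate 3. Leaving out Atm-/- passage 8 replicate 1 gave 0.0769, leaving out Atm-/- passage 2 replicate 2 gave 0.0508, and leaving out any irradiated library gave 0.0501 to 0.0531. The fit of only these groups gave 0.156. Of 9 fibroblast markers 7 were lower and 1 higher in the same comparison, as given above.

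Tet2, the dioxygenase often mutated in blood cells, was at 2.76, 3.85 and 0.877 CPM in Atm-/- passage 8 cells, against 5.80, 5.02 and 5.27 CPM in Atm+/+ passage 8 cells. The groups did not overlap, and replicate 3, the library with the fewest genes, was lowest. The log2 fold change was -1.07 (edgeR, SE 0.75, adjusted p = 0.366), and in the 13 libraries it was -0.68 (SE 0.19, adjusted p = 0.0192). Setdb1 was at 19.3, 19.4 and 9.99 CPM in Atm-/- cells, against 22.7, 22.2 and 25.0 CPM in Atm+/+ cells, also without overlap (edgeR log2 fold change -0.51, SE 0.27, adjusted p = 0.221). Setdb1 shares 75 exon bases with Cers2 on the other strand, 1.09% of its exon length, and whether counting used the strand is not stated. Trim28 was at 255, 245 and 163 CPM in Atm-/- cells, against 222, 225 and 211 CPM in Atm+/+ cells, with overlap (log2 fold change 0.01, SE 0.17).

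Genes around these at passage 8 went both ways, where 5.03% of all genes were higher and 4.29% lower without Atm. Of 7 readers 2 were higher and 0 lower, of 13 partners 1 and 0, and of 17 imprinted genes 1 and 0. Of 12 genes of active demethylation and Tet cofactors 0 were higher and 2 lower. Of 19 genes of H3K9 methylation, KRAB and HP1 silencing 2 were higher and 1 lower. Without Atm, Mbd1 was at 153, 183 and 161 CPM, against 89.3, 105 and 121 CPM in Atm+/+ cells (edgeR log2 fold change 0.66, SE 0.14, adjusted p = 0.00993), and Mbd3 rose by 0.64 (SE 0.15). Lig1 rose by 0.59 (SE 0.17), Chaf1b by 1.38 (SE 0.39) and Daxx by 0.40 (SE 0.11), beside 4 of 24 S phase genes higher and 0 lower. In edgeR 0 of 16 mitosis genes passed there, with 1 at an unadjusted p under 0.05. Idh2 fell by 1.04 (SE 0.175), and Ogt, the sugar transferase that binds Tet proteins, fell by 0.69 (SE 0.12). Kdm1a, a histone demethylase that also acts on Dnmt1, fell by 0.47 (SE 0.12). The imprinted gene Ndn rose by 0.78 (edgeR, SE 0.11, adjusted p = 0.00158).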

How the data were processed

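Per the labels' protocols, total RNA of 15 cultures went into TruSeq libraries, and the submitters' processing notes name mm10, featureCounts and SAMtools 1.3.1. For the aligner and strand setting the sources used here give nothing. The authors deposited raw counts for 48440 genes, which were tested, and TPM, used for levels per length and as an alternative. Symbols and positions came from GENCODE vM21 (GRCm38), and promoter windows from RefSeq (GRCm38.p6).

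Genes kept by filterByExpr (18167) were fitted in edgeR 4.0.16 (R 4.3.3; TMM, robust quasi-likelihood, 1 mean per group, 15 libraries), and each of 7 comparisons was a contrast, with Benjamini-Hochberg adjustment over all genes tested and a threshold of 0.05. SE is the fold change over the root of F. The steps were tested on simulated data.

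The members and gene lists were chosen with earlier results of these data known, as was the pair of libraries left out. Named by rule were all 10 genes, Atm, and 3 genes of nearest pattern per member, leaving out predicted and clone-based symbols. List genes were taken from among up to 4 passing genes of lowest p per list and comparison (mean log2 CPM of at least 0). Not all of those are named. Outside this rule, Tdrd1, Brdt, Piwil2, Morc3, Morc2a, Smchd1 and Ptprc were also named. Alternatives were DESeq2 1.42.0, its size factors in edgeR, no filter, a strict filter (1 CPM in 3 libraries, mean count 50), only the groups compared, limma 3.58.1 on log2(TPM + 1) and log2(TPM + 0.1) (0.5 TPM in 3 libraries), a replicate block, 13 libraries, and each library left out. Replicate correlations of log2 CPM were 0.892 to 0.993, and 0 libraries were identical. Deviations from group means correlated between libraries of the same number at -0.202 to 0.219, and no pair of groups had all 3 above 0.1, so the fit without a block was kept. The floor of 3 counts covers counting error only.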

Additional observations from a re-analysis of the deposited data

How the results depend on the processing

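Uhrf1 after irradiation against passage 2 passed in every alternative. Of 1650 values of the 10 genes under the alternatives, 1572 kept their sign, and the 78 that did not were uncalled in both fits. Counts of passing genes among the 10 moved as follows. With 15 libraries they were 1 for genotype at passage 8, 2 for passage in Atm+/+ cells, 1 for passage in Atm-/- cells, 3 for irradiation against passage 2 and 1 against passage 8. In the same order they were 0, 0, 0, 1 and 0 in limma on both TPM scales. With a pseudocount of 1 the all-gene median there was -0.30, 0.19, -0.33, 0.33 and 0.14. In the 13 libraries the counts were 2, 4, 2, 6 and 1. The first 4 of these stood beside 4629, 7418, 5026 and 8561 calls over all genes, both directions together. In all 15 libraries those were 1693, 4227, 2362 and 4998. More genes of any kind thus passed in the fit of 13, so the rise among the 10 is no result particular to them. With no filter the first 3 were 0, 1 and 0, and in a fit of only the groups compared they were 0, 1 and 0, with 2 for irradiation against passage 8 (Uhrf1 and Setdb1). With the replicate block, passage gave 1 in Atm+/+ cells (Trim28; Uhrf1 had adjusted p = 0.0562) and 0 in Atm-/- cells (Dnmt3a 0.0561), and no other count of members changed by over 1.5 times; same-numbered samples were not shown to be paired. Leaving out 1 library gave 0 to 1 for genotype at passage 8, 0 to 2 for passage in Atm+/+ cells, 0 to 2 in Atm-/- cells, and 0 to 2 for the difference of passage effects (Tet1 and Setdb1 without Atm+/+ passage 2 replicate 2). Over all genes the 15 libraries gave 176 calls for genotype at passage 2 (40 to 989 under the alternatives other than leaving out 1 library), 1693 at passage 8 (18 to 4629), 4227 for passage in Atm+/+ (2665 to 7418), 2362 in Atm-/- (868 to 5026), 4998 for irradiation against passage 2 (3711 to 8561), 1252 against passage 8 (923 to 6214) and 804 for the difference (120 to 3472). Leaving out 1 library moved the same counts to 61 to 1787, 588 to 3390, 2186 to 7500, 1476 to 3544, 2677 to 8275, 722 to 2341 and 79 to 4600, in the order just given. The highest came without Atm+/+ passage 2 replicate 2 for genotype at passage 2 and for the difference, without Atm+/+ passage 2 replicate 3 for genotype at passage 8 and passage in Atm-/- cells, and without Atm-/- passage 8 replicate 3 for the other 3. Dnmt3b and Tet1 had no more than 57 reads in any library. The cause of these shifts was not tested.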
